A study of Ascodesmis nigricans with 6 samples.

Results

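The 98 genes described here ranked among the 300 highest by read count in each of 3 tissues of Ascodesmis nigricans, a filamentous ascomycete (cup fungus), out of 9622 gene models counted. A gene's CPM is its raw count per 1000000 counts of the library, and a tissue's level is the mean CPM of its 2 libraries. Genes were ranked by that level within each tissue, and a gene was a member if all 3 ranks were 300 or better. Another 142 genes reached the 300 highest in exactly 2 tissues and 322 in exactly 1, so 562 genes made up the 3 lists. The members were thus chosen by their measured levels in all 6 libraries. That they are abundant everywhere is therefore not a finding, and their levels are given as a description.

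The 3 groups were total sexual mycelium, total vegetative mycelium and protoapothecia, with 2 independent biological replicates each, all of strain CBS 389.68. Protoapothecia are the young stage of the apothecium, the open, cup-shaped fruiting body in which sexual spores form. All cultures grew for 3 days at 25 °C on slides carrying 150 to 200 µl of rabbit food medium with agar, and were fixed in ethanol before RNA was extracted and linearly amplified. The labels mark only the protoapothecia as laser-microdissected, so tissue and way of collection cannot be told apart. The sexual libraries are of whole mycelium, and the labels do not say how much protoapothecial tissue they hold. In such bulk samples a change in the share of a cell type and a change of RNA per cell cannot be told apart. No marker gene could be used to check the tissue labels, because the identifiers in the table come with neither a name nor a product.

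In growing fungal hyphae, the most abundant messenger RNAs commonly encode the parts that every cell needs in bulk, such as ribosomal proteins, translation elongation factors, histones and glycolytic enzymes. Fruiting bodies add proteins of the cell wall and of the developing sexual tissue. Which of the 98 genes encode such proteins is not given in the sources used here, so each is named by identifier, with its mRNA length and its values alone.

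The members took a larger part of the reads in vegetative mycelium than in the other tissues. They held 31.1% and 30.3% of all counts in the 2 vegetative libraries, 19.3% and 20.6% in the protoapothecia libraries, and 16.5% and 16.2% in the sexual libraries. Of the counts of each tissue's own 300 highest genes, the members held 49.6% and 47.9% in the vegetative libraries, 34.7% and 36.4% in those of protoapothecia, and 34.1% and 37.3% in the sexual ones. The vegetative libraries were thus the highest by both measures, and no vegetative value overlapped with those of another tissue. The members had high counts in every library, which limits counting error only. The totals ran from 11589777 to 12835772 counts, and the lowest count of any member in any library was 2803. The median member had 10500 to 34389 counts per library, against 136 to 377 for the median of all gene models.

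**Figure D1:**
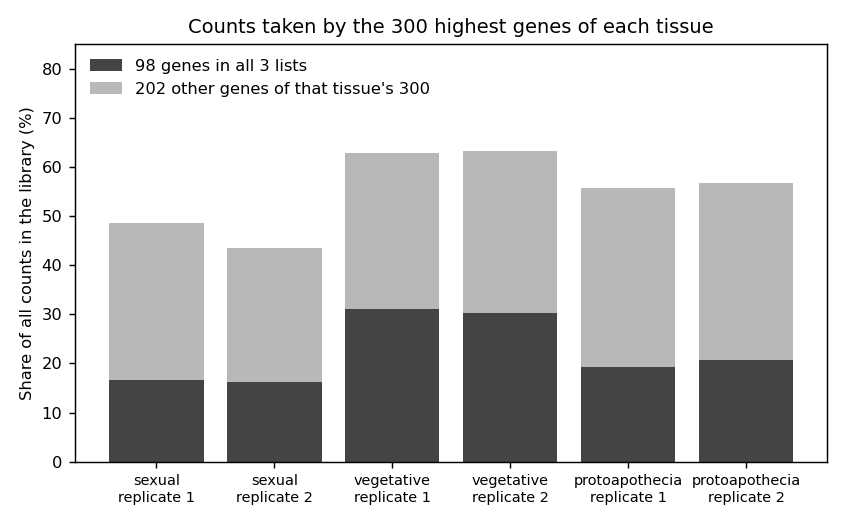
Share of all counts (%, y axis) in each of the 6 libraries (x axis) taken by the 98 genes found in all 3 lists (dark) and by the 202 other genes among that tissue's 300 highest (light). The dark part is tallest in the vegetative libraries, at 31.1% and 30.3%, and lowest in the sexual libraries, at 16.5% and 16.2%.

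The members did not sit at the same height in the 3 rankings. Their median rank was 74 in vegetative mycelium, against 111.5 in protoapothecia and 127.5 in sexual mycelium. They filled 62 of the first 100 places of the vegetative list, 42 of the protoapothecia list and 40 of the sexual list. Among the first 10 places they held 6, 2 and 3, respectively. The gene ranked first in vegetative mycelium, proteinId359588, was a member. Those ranked first elsewhere were not: proteinId190317 of sexual mycelium had rank 7217 in vegetative mycelium, and proteinId324922 of protoapothecia had rank 7436 there.

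Each pair of tissues shares at least the members by definition. Vegetative and sexual mycelium had 189 of their 300 genes in common, sexual mycelium and protoapothecia 136, and vegetative mycelium and protoapothecia 111. Of the 142 genes in exactly 2 lists, 91 missed only the protoapothecia list, 38 only the vegetative list and 13 only the sexual list. Genes that missed a list were not always near it. The 91 genes had a median rank of 966 in protoapothecia and the 38 genes a median rank of 1819 in vegetative mycelium, whereas the 13 genes had a median rank of 386 in sexual mycelium.

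The threshold cut through a gradual slope of levels. The gene at rank 300 was at 583 CPM in sexual mycelium, 615 in vegetative mycelium and 583 in protoapothecia, and the gene ranked just below it was at 583, 612 and 583 CPM. The last members inside were proteinId355370 (rank 298 in vegetative mycelium), proteinId365469 (298 in protoapothecia) and proteinId1139 (299 in vegetative mycelium). The first genes outside were proteinId370586 (303 in vegetative mycelium), proteinId337359 (306 in protoapothecia) and proteinId337400 (309 in protoapothecia). One of them rested on unequal replicates: proteinId370586 had 1108 and 201 CPM in the protoapothecia libraries and 402 and 815 CPM in the vegetative libraries.

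The members highest in every ranking were taken as the 10 genes whose worst of the 3 ranks was best. From here on, levels within a gene are CPM scaled by TMM factors (from a trimmed mean of log ratios between libraries), which adjust library sizes so that most genes change little. Levels are given as mean ± SD of 2 libraries. The factors were 1.32 and 1.41 for the sexual, 0.840 and 0.819 for the vegetative, and 0.895 and 0.872 for the protoapothecia libraries. They lower the sexual levels against the others, which matters for the directions below. The ranks used library totals, so in scaled CPM the entry level of the lists was lowest in sexual mycelium. The rule thus also bears on which tissue is lowest, and how far it does was not tested.

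First came proteinId359588, with an mRNA of 1592 bases and ranks 4, 1 and 13 in sexual mycelium, vegetative mycelium and protoapothecia. Its scaled CPM was 8793 and 13315 in the sexual libraries, 41349 and 41858 in the vegetative ones, and 6770.4 and 6562 in the protoapothecia ones. The 3 tissues did not overlap, with the vegetative libraries highest and the protoapothecia lowest. Its level was 6.24-fold higher in vegetative mycelium (41603 ± 360) than in protoapothecia (6666 ± 147; SD, n = 2), a fitted log2 difference (protoapothecia minus vegetative) of -2.64 ± 0.27 (SE; edgeR quasi-likelihood adjusted p = 0.000141). Between sexual and vegetative mycelium the fitted difference was -1.91 ± 0.26 (adjusted p = 0.00176), and between protoapothecia and sexual mycelium it was -0.73 ± 0.26 (adjusted p = 0.0384, edgeR).

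Second was proteinId351399, a short model of 546 bases. It had 4156 and 2285 scaled CPM in the sexual libraries, 7058 and 7669 in the vegetative ones, and 3692 and 2914 in the protoapothecia ones. The vegetative libraries were above the 4 others, while the sexual and protoapothecia values overlapped. It fell in both sexual mycelium and protoapothecia against vegetative mycelium, by 1.19 and 1.16 on the log2 scale (edgeR adjusted p = 0.0244 and 0.0154).

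Of the next 8 genes, 6 had vegetative mycelium highest but differed between the other tissues. The levels of proteinId339555, proteinId344355, proteinId319752, proteinId337975, proteinId338548 and proteinId338862 were all highest in vegetative mycelium, between 5165 and 7988 scaled CPM in each library. In the sexual libraries the same 6 genes were at 735 to 2323 scaled CPM, and in the protoapothecia libraries at 2020.0 to 3141. Protoapothecia against sexual mycelium did not pass for proteinId344355, whose libraries overlapped, or for proteinId319752 (edgeR adjusted p = 0.597 and 0.0606). By library totals both genes were lower in protoapothecia than in sexual mycelium. The rest were called higher in protoapothecia than in sexual mycelium. For all 6, sexual against vegetative mycelium passed, with fitted log2 differences from -1.84 ± 0.24 (proteinId344355, edgeR adjusted p = 0.00153) to -2.72 ± 0.27 (proteinId338548, edgeR adjusted p = 0.00062). The vegetative replicates of these genes lay close together. For proteinId319752 they were 7988 and 7983 scaled CPM, against 1529 and 1587 in sexual mycelium and 2327 and 2174 in protoapothecia.

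The remaining 2 of the 10 genes were highest in protoapothecia. For proteinId341025 (1548 bases), the libraries had 1835 and 2442 scaled CPM in sexual mycelium, 2613 and 2998 in vegetative mycelium, and 4178 and 5726 in protoapothecia. The tissues did not overlap, and protoapothecia were higher than sexual mycelium by 1.21 ± 0.28 and than vegetative mycelium by 0.82 ± 0.27 on the log2 scale (edgeR adjusted p = 0.00715 and 0.0292). The mycelia did not pass against each other (log2 difference -0.39 ± 0.27, adjusted p = 0.279). The replicates of proteinId340210 differed more, with 2206 and 922 in sexual, 2439.7 and 4158 in vegetative, and 4139 and 4511 scaled CPM in protoapothecia. The vegetative and protoapothecia libraries of this gene overlapped.

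**Figure D2:**
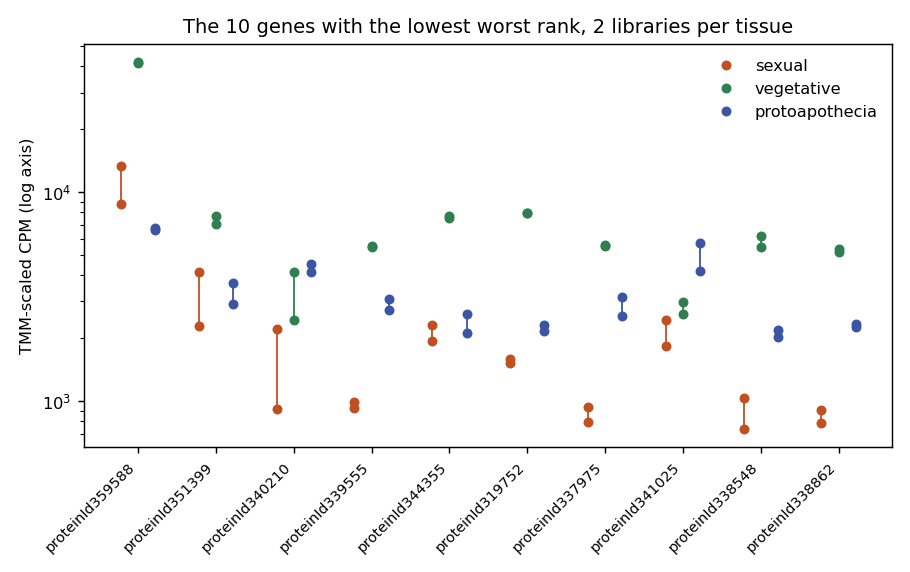
TMM-scaled CPM (y axis, log scale) of the 10 genes with the best worst rank (x axis) in the 2 libraries of sexual mycelium (orange), vegetative mycelium (green) and protoapothecia (blue); a line joins replicates. Vegetative values lie above the 4 other values for 8 of the 10 genes, and proteinId359588 is highest at 41349 and 41858.

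Over all 98 members, sexual mycelium was the tissue with the lowest level most often. The lowest tissue mean was in sexual mycelium for 80 members, in protoapothecia for 13 and in vegetative mycelium for 5. Of the 8861 genes tested, 15.2%, 41.7% and 43.1% had their lowest mean in these tissues. The highest mean was in vegetative mycelium for 64 members, in protoapothecia for 30 and in sexual mycelium for 4, against 28.4%, 40.9% and 30.8% of all genes tested. The counts of members lowest in a tissue, or highest in sexual mycelium, depended on the scaling. By library totals alone, 56 members were lowest in sexual mycelium (5.59% of the genes tested). In protoapothecia 24 were lowest (44.2%), in vegetative mycelium 18 (50.2%), and 10 were highest in sexual mycelium (50.1%). By RLE size factors (the median of ratios), 86 members were lowest in sexual mycelium (20.9% of the genes tested). In protoapothecia 7 were lowest (38.9%), in vegetative mycelium 5 (40.2%), and 2 were highest in sexual mycelium (23.6%). The counts highest in vegetative mycelium and in protoapothecia moved less. Highest in vegetative mycelium were 60 members by library totals (15.9% of the genes tested) and 63 by RLE size factors (32.2%). Highest in protoapothecia were 28 (34.0%) and 33 (44.1%).

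**Figure D3:**
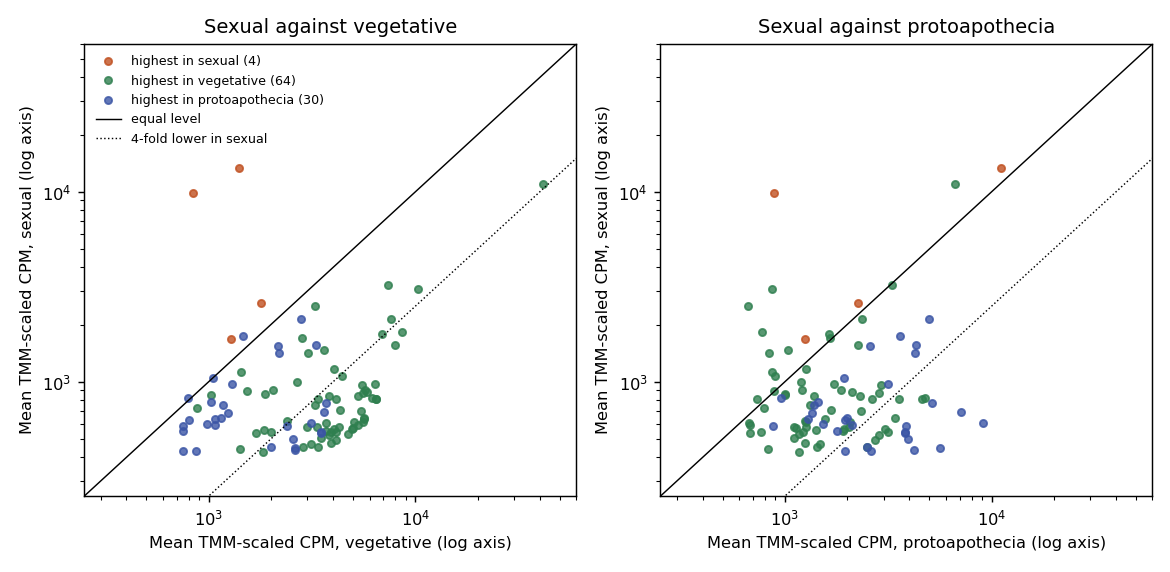
Mean TMM-scaled CPM of the 98 genes in sexual mycelium (y axes, log scale) against vegetative mycelium (left x axis) and protoapothecia (right x axis), coloured by the tissue with the highest mean (64 vegetative, 30 protoapothecia, 4 sexual). Most points lie below the solid line of equal levels in both panels, many of them near or past the dotted line that marks a 4-fold lower level in sexual mycelium.

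The members were then set against the tests across all genes. A gene was called at an edgeR quasi-likelihood adjusted p under 0.05, adjusted over the 8861 genes tested, all 98 members among them. The rule used tissue means from these same libraries, so the counts below describe the members and are not independent of how they were chosen. A place among the 300 highest everywhere also limits how far apart a member's levels can lie. The rule also let members enter at a lower scaled level in sexual mycelium, which bears on the directions of the calls. The 3 comparisons share libraries pairwise.

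Sexual against vegetative mycelium showed the most one-sided picture. In sexual mycelium, 75 of the 98 members were lower and 2 were higher, where 14.8% and 30.7% of all genes tested were called in these directions (45.5% in either). The median fitted log2 difference of the members was -2.07, against 0.42 for all genes. Both sexual libraries were below both vegetative ones for 90 members, and above both for 5, where 28.3% and 51.8% of all genes had these patterns.

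The lowest differences belonged to proteinId318258, proteinId314046 and proteinId356969. The first, of 782 bases, had 527 and 703 scaled CPM in sexual mycelium, 5845 and 5355 in vegetative mycelium, and 2035 and 2081 in protoapothecia. Each tissue stood clear of the others, and the fitted log2 difference between the mycelia was -3.19 ± 0.26 (edgeR adjusted p = 0.00048). In proteinId314046 (753 bases) the values ran in the same order, at 471 and 585, 4982 and 4436, and 1142 and 1188 scaled CPM, with a difference of -3.16 ± 0.26 (edgeR adjusted p = 0.00048). In proteinId356969 (669 bases) sexual mycelium at 526 and 659 and protoapothecia at 738 and 622 scaled CPM overlapped, both far below vegetative mycelium at 5420.3 and 5087 (difference between the mycelia -3.15 ± 0.26, edgeR adjusted p = 0.00048).

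With TMM factors, proteinId118386 and proteinId355837 were the 2 members called higher in sexual than in vegetative mycelium. By library totals 6 members were higher and 62 lower, where 53.7% and 7.12% of all genes were. The first of the 2, of 952 bases, had 15131 and 11535 scaled CPM in sexual mycelium and 9871 and 12370.3 in protoapothecia, which overlapped, but 956 and 1856 in vegetative mycelium. It held rank 3 in sexual mycelium, rank 5 in protoapothecia and rank 177 in vegetative mycelium. The log2 difference from vegetative mycelium was 3.25 ± 0.39 in sexual mycelium and 2.98 ± 0.38 in protoapothecia (edgeR adjusted p = 0.00104 and 0.000382). With TMM factors it was the 1 member called lower in vegetative mycelium than in both other tissues, a pattern of 23.2% of all genes.

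The short model proteinId355837, of 384 bases, was the 1 member called higher in sexual mycelium than in both other tissues with TMM factors, where 7.9% of all genes were. Its libraries differed widely, with 14859.7 and 4788 scaled CPM in sexual mycelium, 286 and 1403 in vegetative mycelium, and 1195 and 582 in protoapothecia. Both sexual libraries were above the other 4. The fitted log2 difference was 3.54 ± 0.90 from vegetative mycelium (edgeR adjusted p = 0.0184), but the call was lost without sexual replicate 1 (2.48, adjusted p = 0.0857) and without vegetative replicate 1 (2.81, adjusted p = 0.0627).

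Protoapothecia against sexual mycelium went mostly the other way. The level in protoapothecia was higher for 65 members and lower for 5, while 30.7% and 36.9% of all genes were called in these directions (67.5% in either). The median log2 difference was 1.14 in the members and -0.16 over all genes. Both protoapothecia libraries were above both sexual ones for 73 members (39.4% of all genes) and below both for 10 (44.7% of all genes). Higher genes made up 92.9% of the members' calls with TMM factors and 73.1% with library totals. By library totals 38 members were higher and 14 were lower, against 20.8% and 46.4% of all genes, and the median over all genes was -0.78.

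In this comparison the highest differences were those of proteinId357295, proteinId327875 and proteinId337859, models of 823, 854 and 849 bases. The first had 552 and 663 scaled CPM in sexual mycelium, 3213 and 3036 in vegetative mycelium, and 8286 and 9953 in protoapothecia. No libraries of different tissues overlapped, and it was 15.0-fold higher in protoapothecia (9120 ± 1179) than in sexual mycelium (607 ± 78.0; SD, n = 2; log2 difference 3.91 ± 0.26, edgeR adjusted p = 8.47e-05). For proteinId327875 the 6 values were 414 and 478, 2749 and 2490.4, and 5251 and 6044 scaled CPM in the same order of tissues, and the difference was 3.66 ± 0.25 (edgeR adjusted p = 8.67e-05). For proteinId337859 they were 670.1 and 708, 3532 and 3708, and 6489 and 7789.8 scaled CPM, and the difference was 3.37 ± 0.25 (edgeR adjusted p = 9.63e-05). These 3 genes also exceeded their vegetative level in protoapothecia, by 1.55, 1.11 and 0.98 on the log2 scale (edgeR adjusted p = 0.000944, 0.00393 and 0.00609).

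The 5 members lower in protoapothecia than in sexual mycelium were proteinId359588, proteinId338083, proteinId323262, proteinId355837 and proteinId365469. All but proteinId355837 were lower than vegetative mycelium as well, so 4 members were called lower in protoapothecia than in both mycelia, as were 28.4% of all genes. Levels of proteinId365469 (1383 bases) were 2698 and 2309 scaled CPM in sexual mycelium, 3099.8 and 3403 in vegetative mycelium, and 732 and 595 in protoapothecia. The mycelia lay close to each other and well above protoapothecia (log2 difference of protoapothecia from sexual mycelium -1.92 ± 0.25, edgeR adjusted p = 0.000604). The replicates of proteinId338083 (1042 bases) were apart in every tissue, at 4159 and 2017, 7153 and 13505, and 1233 and 496 scaled CPM. Its difference from sexual mycelium, -1.84 ± 0.57 (edgeR adjusted p = 0.0254), did not pass without protoapothecia replicate 2 (-1.34, adjusted p = 0.12) or without sexual replicate 1 (-1.21, adjusted p = 0.125). The same held for proteinId355837, whose difference of -3.47 ± 0.90 (edgeR adjusted p = 0.0124) went to -3.05 (adjusted p = 0.0895) and -2.41 (adjusted p = 0.0676) without these libraries.

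Protoapothecia against vegetative mycelium split the members more evenly. In protoapothecia 17 members were higher and 52 were lower, where 39.8% and 35.3% of all genes were called in these directions (75.1% in either). With upper-quartile factors these counts were 11 and 59, against 36.1% and 39.7% of all genes. The median log2 difference was -0.75 for the members and 0.15 for all genes. Both protoapothecia libraries were above both vegetative ones for 25 members (46.4% of all genes) and below both for 62 (43% of all genes). After proteinId118386, the highest difference was that of proteinId1139 (852 bases), with 475 and 393 scaled CPM in sexual mycelium, 679 and 816 in vegetative mycelium, and 2468 and 2745 in protoapothecia (log2 difference from vegetative mycelium 1.80 ± 0.25, edgeR adjusted p = 0.000561). It is a member by a narrow margin, at ranks 292 and 299 in the mycelia.

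The lowest difference in that comparison was that of proteinId338083, -3.58 ± 0.61 (edgeR adjusted p = 0.00163). Next came proteinId323262 (1728 bases), with 8495 and 8683 scaled CPM in vegetative mycelium, 1865 and 1776 in sexual mycelium, and 823 and 731 in protoapothecia. Its replicates were close in all 3 tissues, and its difference was -3.47 ± 0.24 (edgeR adjusted p = 3.63e-05). The gene proteinId356969, whose values are given above, followed with -2.95 ± 0.26 (edgeR adjusted p = 8e-05).

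Sorted by the order of their 3 tissue means with TMM factors, 80 of the 98 members followed one of 2 orders with sexual mycelium last. The order vegetative over protoapothecia over sexual held for 52 members, and 6.44% of all genes tested had it. In the median of these 52 genes, scaled CPM was 4250 and 4053 in the vegetative, 1556 and 1506 in the protoapothecia, and 583 and 686 in the sexual libraries. Together they took 18.8% and 17.3% of all counts in the vegetative libraries, 8.63% and 8.61% in those of protoapothecia, and 5.08% and 5.84% in the sexual ones. Their mRNAs were 336 to 3364 bases long with a median of 925. Of the 52, 29 passed in all 3 comparisons, against 24% of all genes.

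The order protoapothecia over vegetative over sexual held for 28 members, against 8.71% of all genes. Their median scaled CPM was 2370 and 2932 in the protoapothecia, 1660 and 1652 in the vegetative, and 562 and 642 in the sexual libraries. Of these 28 members, 9 passed in all 3 comparisons, against 24% of all genes. A group of 12 members had vegetative mycelium highest and protoapothecia lowest, with medians of 3433 and 3549, 1529 and 1645, and 859 and 901 scaled CPM in vegetative mycelium, in sexual mycelium and in protoapothecia. This order was found in 21.9% of all genes.

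The order found most often among all genes, protoapothecia over sexual over vegetative (32.1%), held for 2 members with TMM factors, proteinId341239 and proteinId340620. In the first (804 bases) the libraries had 2919.8 and 4304 scaled CPM (protoapothecia), 1694 and 1789.7 (sexual) and 1346 and 1582 (vegetative), with protoapothecia clear of both mycelia. Sexual mycelium came first for 4 members, proteinId118386, proteinId355837, proteinId343265 and proteinId398212. The orders depended on the scaling, and 70 of the 98 members kept theirs by library totals. The order vegetative over protoapothecia over sexual then held for 39 members (2.63% of all genes), and protoapothecia over vegetative over sexual for 17 (2.93%). Vegetative over sexual over protoapothecia held for 21 (13.2%) and protoapothecia over sexual over vegetative for 11 (31.0%). By RLE size factors these 4 orders held for 56, 30, 7 and 3 members, against 8.32%, 12.6%, 23.9% and 31.6% of all genes.

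The 3 comparisons together called sexual mycelium lower than both other tissues for 53 members, against 4.16% of all genes. Vegetative mycelium was called higher than both others for 50 members (11% of all genes) and protoapothecia for 16 (26% of all genes). With library totals the first count was 31. The share of all genes under that scaling is not given here, so 31 cannot be set against 4.16%. All 3 comparisons passed for 41 members and for 24% of all genes.

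No comparison passed for 7 members, against 12.5% of all genes: proteinId343265, proteinId398212, proteinId316516, proteinId324087, proteinId344664, proteinId340620 and proteinId355370. A p that misses the threshold does not show equal levels. The count rose when a protoapothecia or a vegetative library was left out, and was 13 with library totals. The shares of all genes in these fits are not given here, so they cannot be set against 12.5%.

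The spread of each member over the tissues was measured as the ratio of its highest to its lowest tissue mean. This ratio had a median of 5.34 in the members and 5.66 in all tested genes with counts in every tissue, and it was under 2 for 14 members, against 13.9% of all genes. The rule limits large ratios. A ratio under 10 held for 92 members (93.9%) and for 60.5% of all genes. The other 6 members reached a ratio of 10 or more, and the largest, that of proteinId357295, was 15.0. By library totals the median was 3.72 in the members and 6.65 in all genes, and 19 members lay under 2 (19.4%, against 10.6% of all genes), with proteinId355837 largest at 19.0. By RLE size factors the medians were 6.12 and 5.56, and 8 members lay under 2 (8.16%, against 13.5%). Whether the share of members under 2 was above or below that of all genes thus turned with the scaling.

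**Figure D4:**
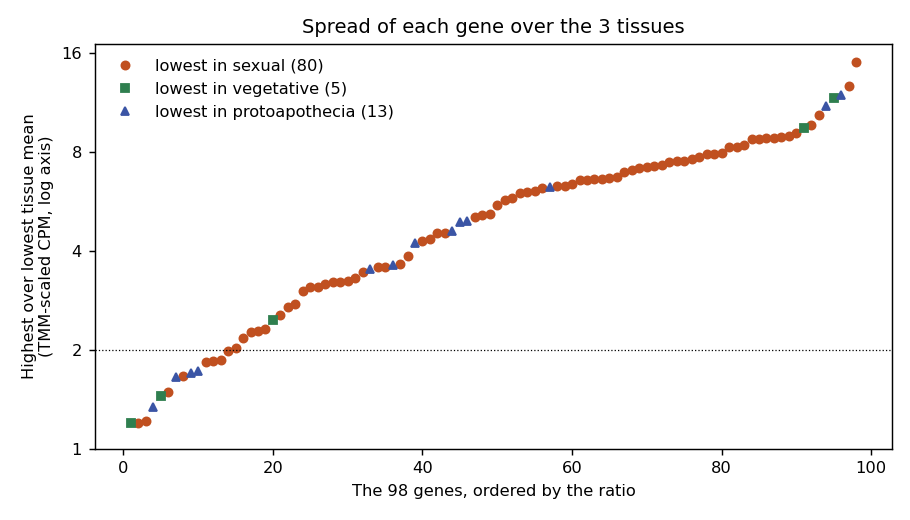
Ratio of the highest to the lowest tissue mean of TMM-scaled CPM (y axis, log scale) for the 98 genes, ordered by the ratio (x axis), with the tissue of the lowest mean shown by colour and shape. The ratio runs from 1.20 to 15.0, and 14 genes lie below the dotted line at 2.

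The 4 members with the smallest ratio were proteinId340620, proteinId324087, proteinId344664 and proteinId398212. Of these, proteinId324087 (813 bases) had 805 and 899 scaled CPM in sexual mycelium, 979 and 1070.3 in vegetative mycelium, and 908 and 1090.2 in protoapothecia, a ratio of 1.20. Values of proteinId344664 (994 bases) were 732 and 715, 872 and 882, and 669.7 and 914 scaled CPM in the same order, a ratio of 1.21. The ratio of proteinId340620 was also 1.20, but its sexual libraries were apart, at 615 and 1036 scaled CPM. For proteinId398212 the ratio was 1.34, with 1789 and 1571 scaled CPM in sexual mycelium above the other libraries at 1118 to 1400.3. These ratios depend on the scaling. By library totals they were 1.37 for proteinId324087, 1.41 for proteinId344664, 1.73 for proteinId340620 and 2.15 for proteinId398212.

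Replicates of the members lay closest in vegetative mycelium. The median ratio of the higher to the lower library was 1.08 for the vegetative, 1.18 for the protoapothecia and 1.24 for the sexual libraries. Over all tested genes that averaged 20 or more counts in the tissue, these medians were 1.15, 1.29 and 1.28. Replicates were over 2-fold apart for 4 members in sexual mycelium (proteinId340210, proteinId364390, proteinId338083 and proteinId355837), 2 in protoapothecia (proteinId338083 and proteinId355837) and 1 in vegetative mycelium (proteinId355837). The widest gap in sexual mycelium was that of proteinId364390 (790 bases), at 1006 and 285 scaled CPM, a ratio of 3.53. In vegetative mycelium proteinId355837 was widest with a ratio of 4.91, and in protoapothecia proteinId338083 with 2.49.

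Not all members were among the 300 highest in every single library. The count was 98 and 95 in the vegetative libraries (replicates 2 and 1), 94 and 93 in the protoapothecia libraries, and 90 and 96 in the sexual libraries (replicates 1 and 2), and 78 members met the threshold in all 6.

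Length was not part of the rule, but long mRNAs can collect more reads at the same number of molecules. The members were nonetheless shorter in the median than the other sets. Their median mRNA length was 937.5 bases (quartiles 772 and 1252), against 1059.5 in genes of exactly 2 lists, 1341.5 in genes of exactly 1 list and 1230.0 in all gene models. Models under 1000 bases were 58.2% of the members and 38.6% of all gene models, and those over 2000 bases were 8.16% and 22.5%. The shortest members were proteinId347491 (336 bases), proteinId355837 (384) and proteinId343265 (390.0). The longest were proteinId343813 (3364 bases), proteinId356941 (2348) and proteinId340620 (2290.0).

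To compare levels between genes, CPM by library totals was divided by mRNA length in kilobases. That scale takes counts to grow with mRNA length, which was not tested for this amplified RNA. On that scale 3 members had the highest means over the tissues. These were proteinId355837, with 34286 in sexual mycelium, 1809 in vegetative mycelium and 2054 in protoapothecia, proteinId359588 with 9546, 21678 and 3702, and proteinId118386 with 19025, 1220.03 and 10309. The highest tissue differed among these 3 genes, and all values of proteinId355837 rest on unequal libraries. Its sexual libraries were at 50950.7 and 17621 per kilobase. Without sexual replicate 1 its mean over the tissues went from 12716 to 7161, below those of proteinId359588 (12400), proteinId118386 (9551) and proteinId351399 (7484).

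Ranking by CPM per kilobase gave 122 genes in all 3 lists. They included 81 of the 98 members, which is 82.7% of the members and 66.4% of the longer list. The 17 members that left were 1250 bases or longer, with a median of 1995, and the worst rank per kilobase was 588, that of proteinId340410. The longest member, proteinId343813, with 784 and 1556 scaled CPM in sexual mycelium, 3532 and 4544 in vegetative mycelium and 1246 and 1283 in protoapothecia, was among those that left. The shortest, proteinId347491, with 568 and 583, 3311 and 3361, and 2171 and 1894 scaled CPM in the same order of tissues, had a worst rank of 40 per kilobase.

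**Figure D5:**
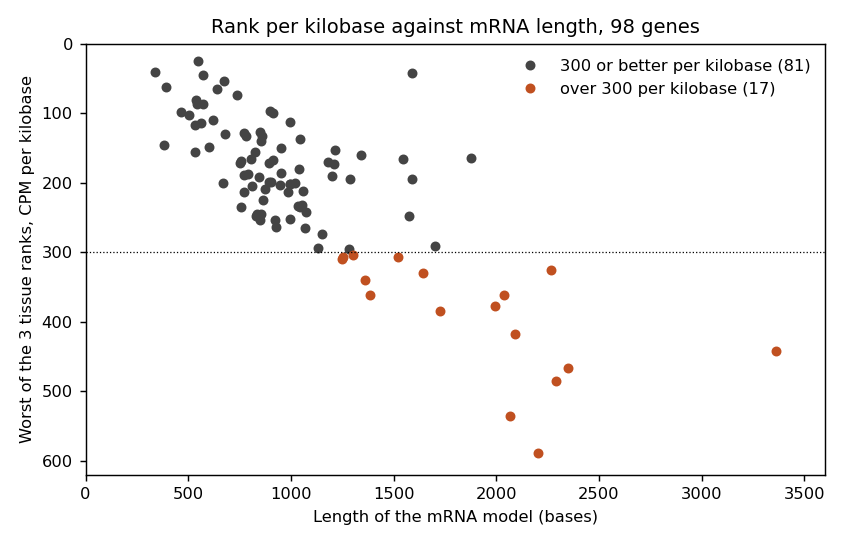
Worst of the 3 tissue ranks by CPM per kilobase (y axis, best at the top) against mRNA length in bases (x axis) for the 98 genes. The 81 genes at or above the dotted line at rank 300 remain members per kilobase, and the 17 below it are 1250 bases or longer.

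The authors' own tests were read for the same genes. In the authors' deposited table, 70 members had a DESeq adjusted p under 0.05 with a higher level in protoapothecia than in sexual mycelium and 4 with a lower one, where 33.8% and 30.1% of all genes with a p were called (63.9% in either direction). For sexual against vegetative mycelium the authors' deposited table calls 2 members higher and 81 lower (26.6% and 19.8% of all genes, 46.5% in either direction), and for protoapothecia against vegetative mycelium 18 higher and 52 lower (38.9% and 32.4%, 71.3% in either direction). With edgeR, 70, 69 and 77 members were called for protoapothecia against sexual, protoapothecia against vegetative and sexual against vegetative mycelium. Of these, 69, 69 and 77 were called in the authors' deposited table as well, and 5, 1 and 6 further members were called there alone. Both tests used the same libraries, and the overlap over all genes is not given here.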

How the data were processed

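The authors deposited 1 table of raw read counts for 9622 gene models in 6 libraries, with mRNA lengths, per the file headers. The sources used here do not name the aligner, counter, genome build, strand setting or treatment of near-identical genes, so counts of paralogs may be shared or split. The table also holds the authors' DESeq ratio and adjusted p-value, the deposited p-value being rounded to 2 decimals. DESeq is named in the submitters' processing notes. Columns were matched to libraries by title.

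The members and all lists were chosen with earlier results of these data known. CPM and ranks used library totals. For the tests, filterByExpr kept 8861 genes (761 were left out), TMM factors were used, and all 6 libraries were fitted by group with edgeR 4.0.16 (limma 3.58.1, R 4.3.3; robust quasi-likelihood, 3 residual degrees of freedom, two-sided, Benjamini-Hochberg over all genes). The SE of a log2 difference is its size over the square root of the F statistic. The script was tested on simulated data in which most genes did not change, so that test did not check the choice of scaling. DESeq2 1.42.0 was an alternative. Since the RNA was amplified, reads do not stand for separate molecules, and depth limits counting error only. Named genes were the 10 with the best worst rank; per comparison the 3 highest and 3 lowest called log2 differences with non-overlapping libraries; the 4 smallest tissue ratios; those nearest the threshold; each tissue's first gene; the widest replicates; the shortest and longest 3; and the 3 highest per kilobase. The members of counts of 7 or fewer were named after their values were seen.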

Additional observations from a re-analysis of the deposited data

How the results depend on the processing

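The number of genes among the 300 highest in all tissues was 98, and 90 to 99 when 1 library was left out. It was 97 by TMM-scaled CPM, 101 by the lower library of each tissue, 78 in all 6 libraries alike, and 52, 75, 115 and 135 at thresholds of 200, 250, 350 and 400, so the list length follows the threshold. Per kilobase, the members took 20.05% of the total in sexual mycelium (16.4% of counts), 23.8% in protoapothecia (19.95% of counts) and 30.8% in vegetative mycelium. Numbers of members called stayed within 1.5 times their value under all alternatives run: 52 to 76 for protoapothecia against sexual mycelium (70), 47 to 74 for protoapothecia against vegetative mycelium (69) and 63 to 84 for sexual against vegetative mycelium (77), with no member called in opposite directions. The number called in no comparison (7) was 4 with DESeq2, 11 with upper-quartile factors, 13 with library totals and 7 to 16 without 1 library. Members called lower in sexual mycelium than in both others (53) were 31 with library totals and 46 to 63 otherwise; the cause was not tested. This count, and that of members lowest in sexual mycelium, were run through alternatives added after the data were seen. In the fit used above, 67.5%, 75.1% and 45.5% of all genes were called in the comparisons, in the same order. Of all genes, 12.5% were called in none and 4.16% lower in sexual mycelium than in both others. For most alternatives the shares of all genes are not given here, so these ranges are not a result about the members.

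The members' median log2 difference moved with the scaling, as did that of all genes. Over TMM, RLE, upper-quartile and total scaling it was 0.51 to 1.45 for protoapothecia against sexual mycelium, -1.07 to -0.66 for protoapothecia against vegetative mycelium and -2.32 to -1.35 for sexual against vegetative mycelium. The distance to the median of all genes is fixed by construction, since a scaling factor shifts all genes alike. Counts by order and ratio under other scalings were also added after the data were seen. Of 226 alternatives for the 17 differences of named members, 220 stayed called in the same direction and 6, given with proteinId355837 and proteinId338083, missed the threshold.

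The labels number the replicates alike, but nothing says that equal numbers were processed together. With the replicate number as a block, 68, 65 and 71 members were called in these 3 comparisons (protoapothecia against sexual, protoapothecia against vegetative, sexual against vegetative), and 10 in none. Deviations of equal numbers correlated across genes at 0.036, -0.030 and -0.158. Crossing the numbers of the mycelia, fitted alone, gave 82 calls, a fit added after the data were seen. The shares of all genes called in the block and crossed fits are not given here. Without a block, 67.5%, 75.1% and 45.5% of all genes were called in these comparisons, in the same order, and 12.5% in none.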
